A study of Mus musculus with 27 samples.

Results

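This account compares tumour-bearing colon from mice given FOLFOX, a complex probiotic and loperamide (group CAC_FPL, n = 6) with the same tissue from untreated tumour-bearing mice (group CAC, n = 5). All mice were BALB/c of wild-type genotype. CAC mice carried neoplasia induced with azoxymethane (AOM), a carcinogen, and dextran sulfate sodium (DSS), which damages the colon lining, and had saline by intraperitoneal injection and by gavage. CAC_FPL mice had the same AOM/DSS induction, FOLFOX by intraperitoneal injection, and complex probiotics and loperamide by gavage. Both groups were sampled 1 week after chemotherapy began. The comparison uses 11 of the 27 RNA libraries of the series and the 15080 of 39971 listed genes with FPKM of 1 or more in 5 or more libraries. Fitted beside them were untreated mice without AOM/DSS (NC, n = 6), AOM/DSS mice given FOLFOX with saline gavage (CAC_F, n = 5) and AOM/DSS mice given FOLFOX with the probiotics (CAC_FP, n = 5). Each CAC_FPL mouse differed from each CAC mouse in all 3 agents, so the part of any one agent in this contrast cannot be told apart within it. The tissue was a whole segment of colon, and levels in it can move with the number of cells of a type or with RNA per cell, which cannot be told apart.

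FOLFOX joins fluorouracil, which blocks thymidylate synthesis, oxaliplatin, which crosslinks DNA, and folinic acid, which strengthens the action of fluorouracil. Loperamide is an opioid receptor agonist that stays mostly outside the brain, slows gut transit and is used against diarrhoea. The colon lining is renewed from crypt stem cells into absorptive colonocytes, mucus-secreting goblet cells, hormone-secreting enteroendocrine cells and chemosensory tuft cells. Cells of the gut also run a circadian clock, in which CLOCK and BMAL1 switch on the Per, Cry and Nr1d1 genes through E-box sequences and PER and CRY proteins block CLOCK and BMAL1. NR1D1 is a repressor of Bmal1 and other clock genes. NAD+ metabolism is part of the series title, and the enzymes of NAD synthesis and consumption were therefore listed as groups.

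Of the 15080 genes, 212 (1.41%) passed the test at a Benjamini-Hochberg adjusted p below 0.05, 133 higher (0.882%) and 79 lower (0.524%) in CAC_FPL. Values per library below are CPM, read counts scaled to library size, differences are log2 fold changes of CAC_FPL minus CAC ± the standard error (SE), and adjusted p values come from edgeR's quasi-likelihood test. At least a 2-fold difference was reached by 63 of the higher genes (0.418% of those tested) and 48 of the lower genes (0.318%). The 6 CAC_FPL libraries lay wholly above the 5 CAC libraries in 140 genes (0.928%) and wholly below them in 112 (0.743%). The median difference over all 15080 genes was -0.00311. Before adjustment 2837 genes (18.8%) had p below 0.05.

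The count of called genes rested on the spread estimated over all 27 libraries. Fitted on the 11 libraries of these groups alone, 5 genes were called higher (Cry1, Plk3, Wfdc18, Gsta2 and Lipa) and 4 lower (Nr1d1, Bmx, Ighv1-12 and H2bc21), all but Gsta2 among the 212. CAC replicate 2 and CAC_FPL replicate 3 stood apart from the others of their groups. The posterior gut gene Hoxb13 was at 96.9 CPM in CAC replicate 2 and 289 CPM in CAC_FPL replicate 3, and at or below 0.304 CPM in the other 9 libraries. Its relative Hoxa13 was at 37.2 and 56.4 CPM in the same 2 libraries and at or below 7.60 CPM in the others. Without both, 841 genes were called higher and 426 lower, all of the 212 among them in the same direction. Leaving out 1 library gave between 15 higher and 8 lower (without CAC replicate 4) and 511 higher and 286 lower (without CAC replicate 2). Cry1, Nr1d1, Lipa and Plk3 were called in the same direction in all 22 alternative analyses.

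**Figure D1:**
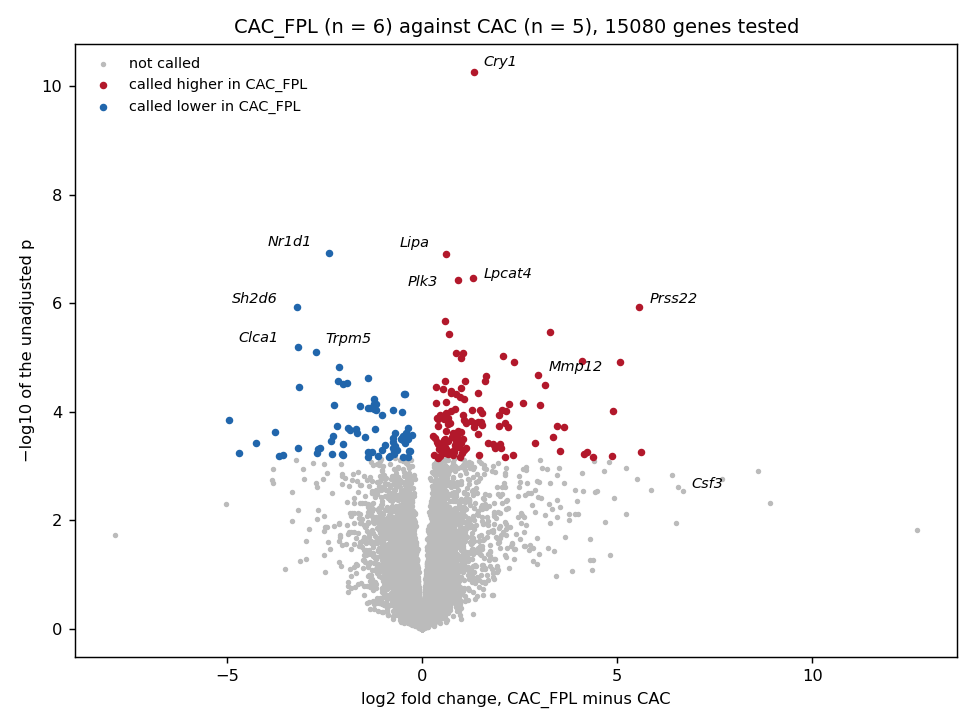
Each point is 1 of the 15080 genes, with the log2 fold change of CAC_FPL minus CAC on the horizontal axis and −log10 of the unadjusted p on the vertical axis. Red points are the 133 genes called higher and blue points the 79 called lower. Cry1 has the smallest p of all, and Csf3, with a larger difference (6.68), was not called.

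The clearest difference was in the circadian clock. Cry1, which encodes a repressor of CLOCK and BMAL1, was higher in CAC_FPL, and Nr1d1, which encodes the repressor REV-ERBα, was lower. Of 19 tested members of a list of 20 clock genes, 3 rose, Cry1 and Per2 among them, 1 fell (Nr1d1) and 15 did not pass the test. The median difference over the 19 was -0.02, against -0.00311 over all genes.

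The promoters of Cry1 and Nr1d1 are shown because these 2 genes moved in opposite directions and were called in every analysis run. Each is the 250 bases before the gene's start in RefSeq (build GRCm38.p6), 5′ to 3′ on the gene's own minus strand, Cry1 from chr10:85185055-85185304 and Nr1d1 from chr11:98775378-98775627. Capitals mark the E-box CACGTG, which reads the same on both strands, and the related E′-box CACGTT, read here on the other strand as AACGTG.
Cry1: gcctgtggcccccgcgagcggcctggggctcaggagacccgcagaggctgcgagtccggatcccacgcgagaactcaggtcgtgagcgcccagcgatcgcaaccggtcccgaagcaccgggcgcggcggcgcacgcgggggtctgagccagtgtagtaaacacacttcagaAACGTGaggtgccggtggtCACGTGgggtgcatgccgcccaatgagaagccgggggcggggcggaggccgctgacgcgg
Nr1d1: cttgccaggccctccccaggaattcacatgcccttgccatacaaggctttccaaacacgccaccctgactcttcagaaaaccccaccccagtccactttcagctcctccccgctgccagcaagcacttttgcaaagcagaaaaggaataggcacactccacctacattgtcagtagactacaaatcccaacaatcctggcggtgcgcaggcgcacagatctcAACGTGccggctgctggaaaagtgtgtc
The Cry1 window held the E-box CACGTG with its first base 60 bases before the start, and AACGTG at 79 bases before it. In the Nr1d1 window AACGTG lay 28 bases before the start and CACGTG was not found. Over all 32851 promoter windows of 250 bases, 6.02% held CACGTG on either strand and 3.85% held CACGTT or AACGTG. The half-site AGGTCA, bound by nuclear receptors such as NR1D1, was in neither window on either strand, while 14% of all windows held it.

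Cry1 (ENSMUSG00000020038, chromosome 10, 84967564 to 85020928, minus strand, in the deposited coordinates, for which the sources used here name no genome build) stood at 13.8, 19.2, 18.0, 16.3 and 15.2 CPM in the 5 CAC libraries and from 38.6 to 46.4 CPM in CAC_FPL, with a median of 41.5. The groups did not overlap, and the lowest CAC_FPL library was above every CAC library by a wide margin relative to the spread within each group. The difference was 1.33 ± 0.12 (adjusted p = 8.27e-07). In mice without AOM/DSS the mean was 28.3 ± 5.02 CPM (SD, n = 6), between the levels of the CAC and CAC_FPL groups.

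Nr1d1 (ENSMUSG00000020889, chromosome 11, 98658758 to 98666159, minus strand) was at 92.1, 57.1, 146, 141 and 155 CPM in CAC, and ran from 13.7 to 37.5 CPM in CAC_FPL, with a median of 20.9. Every CAC_FPL library was below every CAC library. The difference was -2.38 ± 0.32 (adjusted p = 0.000627). NC mice had 125 ± 16.4 CPM (SD, n = 6), in the range of CAC. Its paralog Nr1d2 had a difference of -0.66 ± 0.33 (adjusted p = 0.282).

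Per2, a repressor that acts with the CRY proteins, was at 17.3, 23.2, 46.0, 44.5 and 29.4 CPM in CAC and from 25.8 to 155 CPM in CAC_FPL, with a median of 92.1. CAC_FPL replicates 4 and 5 lay within the CAC range and the other 4 above it. The difference was 1.44 ± 0.32 (adjusted p = 0.0283).

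Other parts of the clock were not called. Bmal1, the activating subunit, differed by -0.55 ± 0.29 (adjusted p = 0.299), and Dbp, an output gene with E-boxes, by -1.06 ± 0.59 (adjusted p = 0.336). Dbp in the CAC_FPL libraries was 23.7, 32.6, 36.3, 2.79, 9.59 and 5.57 CPM in order of replicate, so replicates 4 to 6 lay below the lowest CAC library (17.7 CPM) and replicates 1 to 3 did not. The sources used here do not give the hour at which tissue was taken.

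Against the other FOLFOX groups, Per2 was higher in CAC_FPL than in CAC_F, by 1.15 ± 0.32 (adjusted p = 0.024). In CAC_FPL minus CAC_F 1838 genes (12.2%) were called, 1077 higher (7.14%) and 761 lower (5.05%). Cry1 and Nr1d1 did not pass that test, with 0.31 ± 0.12 and -0.31 ± 0.32 (adjusted p = 0.0769 and 0.519). Per2 was called in 9 of the 17 alternative analyses of that contrast.

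**Figure D2:**
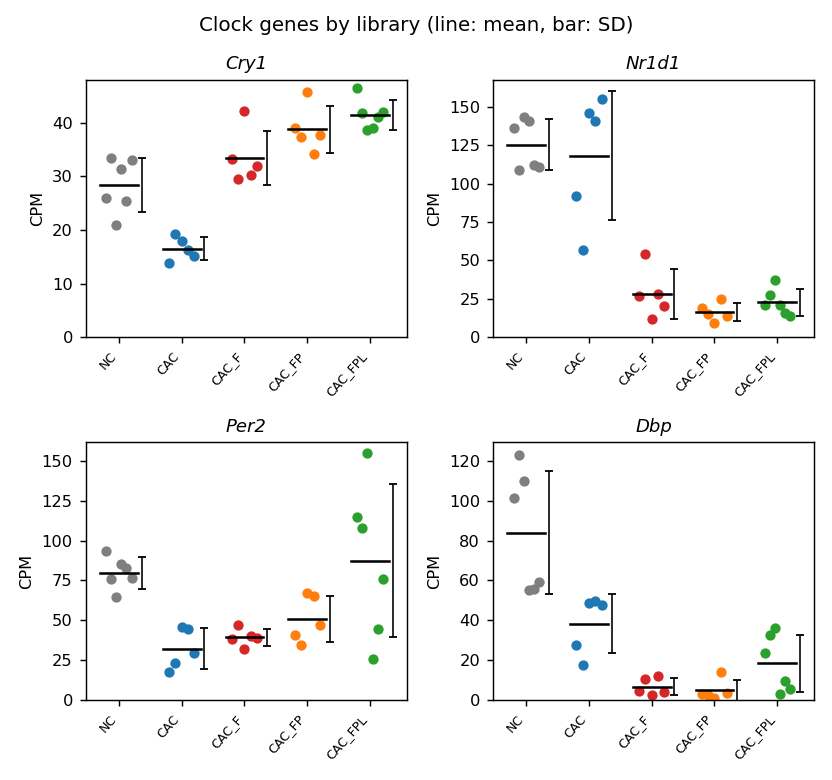
Each panel gives CPM (vertical axis, from 0) of 1 clock gene in every library of the 5 groups, with a line at the group mean and a bar for the SD. In Cry1 all 6 CAC_FPL libraries sit above all 5 CAC libraries, in Nr1d1 all sit below, and Per2 and Dbp are spread widely over the CAC_FPL libraries.

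Among the other genes with the smallest p were 3 that rose, Plk3, Lipa and Lpcat4. Plk3 (ENSMUSG00000028680, chromosome 4, 116985852 to 116991160, minus strand), a stress-responsive kinase induced by p53, was at 13.8, 14.5, 14.7, 14.7 and 18.5 CPM in CAC and from 24.4 to 31.2 CPM in CAC_FPL, with a median of 29.8. The groups did not overlap, and the difference was 0.93 ± 0.14 (adjusted p = 0.00115). Lipa (ENSMUSG00000024781, chromosome 19, 34469718 to 34504874, minus strand), the lysosomal acid lipase, was at 41.2, 51.3, 47.6, 42.3 and 47.9 CPM in CAC and from 63.7 to 82.2 CPM in CAC_FPL, with a median of 69.5. It too had no overlap, with a difference of 0.63 ± 0.09 (adjusted p = 0.000627). Lpcat4, an enzyme of phospholipid remodelling, was at 29.6, 35.9, 29.8, 18.3 and 25.4 CPM in CAC and from 45.0 to 92.8 CPM in CAC_FPL, with a median of 67.2, again without overlap, and differed by 1.31 ± 0.19 (adjusted p = 0.00115). Lpcat4 was called in 21 of 22 alternative analyses.

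Some tuft cell genes fell. Of 10 tested members of a list of 14 tuft cell genes, 3 fell, none rose and 7 did not pass the test, with a median difference of -0.74. DESeq2 called 4 lower, and 6 of the 10 were lower, with none higher, at an unadjusted p below 0.05 by edgeR. Trpm5, the ion channel of taste-like signalling in tuft cells, was at 8.85, 3.96, 12.8, 4.44 and 6.43 CPM in CAC and from 0.546 to 2.67 CPM in CAC_FPL, with a median of 0.737. All 6 CAC_FPL libraries were below all CAC libraries, by -2.72 ± 0.48 (adjusted p = 0.00889). Sh2d6, an adaptor gene used as a tuft cell marker, was at 4.35, 2.59, 8.87, 3.32 and 4.11 CPM in CAC and from 0.0967 to 1.07 CPM in CAC_FPL, with a median of 0.46. It had no overlap either, and differed by -3.20 ± 0.50 (adjusted p = 0.00252). Il17rb, the interleukin-25 receptor subunit, differed by -1.20 ± 0.27 (adjusted p = 0.0312), with 5 of 6 CAC_FPL libraries below every CAC library. The taste G protein gene Gnat3 was at 0.732 to 1.89 CPM in CAC and 0 to 0.533 CPM in CAC_FPL, without overlap, and was not called (adjusted p = 0.0692). Trpm5 and Sh2d6 were each called in 20 of 21 alternative analyses that tested them.

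Goblet cell secretory genes fell in part. Of 19 tested members of a list of 20 goblet cell genes, 2 fell and 17 did not pass the test (median -0.38). Clca1 (ENSMUSG00000028255, chromosome 3, 144709578 to 144738537, minus strand), a secreted protease that processes mucus, was at 5817, 4691, 21325, 8440.2 and 6013 CPM in CAC and from 288 to 2547 CPM in CAC_FPL, with a median of 694. CAC replicate 3 was the highest of its group by far, and no CAC_FPL library reached the lowest CAC library. The difference was -3.19 ± 0.56 (adjusted p = 0.00889). Retnlb, a secreted protein of goblet cells that acts on bacteria, was at 587, 516, 1723, 578 and 211 CPM in CAC and from 14.2 to 407 CPM in CAC_FPL, with a median of 60.2. CAC_FPL replicate 2 lay within the CAC range and the other 5 below it, and the difference was -2.69 ± 0.68 (adjusted p = 0.0464). The main gel-forming mucin Muc2 was at 8487, 8591, 25366, 16785 and 31360.0 CPM in CAC and from 4071 to 20878 CPM in CAC_FPL, with a median of 17527, with the groups overlapping in part and a difference of -0.27 ± 0.52 (adjusted p = 0.818). Tff3, a trefoil peptide of the same cells, differed by 0.56 ± 0.30 (adjusted p = 0.309).

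Sst, which encodes somatostatin, was at 38.7, 8.88, 29.8, 54.2 and 29.2 CPM in CAC and from 3.81 to 13.2 CPM in CAC_FPL, with a median of 7.21. CAC replicate 2 was low and lay within the CAC_FPL range, and the difference was -2.02 ± 0.40 (adjusted p = 0.016). It was the only called member, lower, of 14 tested enteroendocrine genes (median 0.16). Nmu, which encodes neuromedin U, was at 2.79, 1.38, 2.64, 2.91 and 4.25 CPM in CAC and from 0.285 to 1.23 CPM in CAC_FPL, with a median of 0.612, without overlap, a difference of -2.14 ± 0.42 (adjusted p = 0.0151). Grp, the gene of gastrin-releasing peptide, fell by -2.32 ± 0.56 (adjusted p = 0.0397) and Calcb, a calcitonin gene-related peptide of enteric neurons, by -1.93 ± 0.38 (adjusted p = 0.0157), both as signed log2 values and both with overlapping libraries. Grp and Calcb were picked after their values were seen. None of 14 tested enteric neuron and glia genes was called by edgeR or DESeq2 (median -0.39), with 3 lower at an unadjusted p below 0.05.

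Prss22 (ENSMUSG00000045027, chromosome 17, 24212508 to 24217074, minus strand), a secreted serine protease, was at 0, 0.504, 0.2, 0 and 0 CPM in CAC and from 1.33 to 11.8 CPM in CAC_FPL, with a median of 6.98. Counts in CAC were 38 and 12 in replicates 2 and 3 and 0 in the other 3, so the size of its difference, 5.57 ± 0.87 (adjusted p = 0.00252), is loosely fixed. No CAC_FPL library was as low as any CAC library. Cldn4, a tight junction claudin and the only called member of 18 tight junction genes (median 0.08), was at 6.86, 14.2, 17.9, 17.1 and 32.6 CPM in CAC and from 35.9 to 142 CPM in CAC_FPL, with a median of 60.5, without overlap. Its difference was 2.05 ± 0.44 (adjusted p = 0.023). Pla2g2a, a secreted phospholipase that kills Gram-positive bacteria, was at 198, 581, 171, 82.1 and 63.6 CPM in CAC and from 629 to 1756 CPM in CAC_FPL, with a median of 892. CAC replicate 2 was close to the lowest CAC_FPL library and the other 4 were far below. The difference was 2.21 ± 0.50 (adjusted p = 0.0302). Of 21 tested antimicrobial genes of the epithelium Pla2g2a rose and Retnlb fell (median 0.80).

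Clca4a and its neighbour Clca4b, calcium-activated chloride channel regulators of the colonic surface, were the 2 called members of 27 tested salt and water transport genes (median -0.04). Clca4a was at 15.9, 195, 103, 61.6 and 39.9 CPM in CAC and from 195 to 776 CPM in CAC_FPL, with a median of 303, a difference of 2.34 ± 0.60 (adjusted p = 0.0478). Clca4a libraries did not overlap, though the lowest CAC_FPL and the highest CAC library were nearly level. Clca4b differed by 3.35 ± 0.80 (adjusted p = 0.0374). These genes are close copies, and reads shared between them could be split by the counting, so each value is uncertain. Slc26a3, the chloride-bicarbonate exchanger of colonocytes, was not called (0.08 ± 0.59, adjusted p = 0.958), and no member of 25 absorptive colonocyte genes was (median 0.27). At an unadjusted p below 0.05, 1 of those 25 was higher by edgeR, and DESeq2 called 1.

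Other large rises without overlap of libraries were in Has1, a hyaluronan synthase, with 4.38 ± 1.13 (adjusted p = 0.0491), and Ggt1, which cleaves extracellular glutathione, with 3.16 ± 0.62 (adjusted p = 0.016). Has1 was called in 8 of 21 alternative analyses that tested it, and Ggt1 in 18 of 21. Mmp12, the macrophage elastase, was at 1.31, 4.19, 1.89, 2.17 and 0.811 CPM in CAC and from 7.39 to 34.4 CPM in CAC_FPL, with a median of 13.4. CAC_FPL replicate 4 was the highest, all 6 were above CAC, and the difference was 2.96 ± 0.57 (adjusted p = 0.0149). Creb3l3, a transcription factor of lipid handling in liver and gut, rose by 2.89 ± 0.70 (adjusted p = 0.0403), and Rbp2, a retinol carrier of absorptive cells, by 2.59 ± 0.54 (adjusted p = 0.0222). Rbp2 was the 1 called member of 10 tested small intestine and Paneth cell genes (median 1.71). DESeq2 called 3 of the 10 higher and 1 lower. The summed level of this list moved the other way from its median difference. It ran from 407 to 5207 CPM in CAC (median 1904) and from 120 to 1141 CPM in CAC_FPL (median 483). Ms4a10 and Wfdc18 were also among the 12 largest rises, with 2.35 ± 0.43 and 2.12 ± 0.48 (adjusted p = 0.00982 and 0.0283). Krt4, a keratin of stratified epithelium, was at or below 0.0667 CPM in CAC and 0.21 to 1.74 CPM in CAC_FPL (adjusted p = 0.023), and was the 1 called member of 12 tested keratin and cornified epithelium genes (median 0.56).

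Another 5 genes fell without overlap of libraries. Optc, a matrix proteoglycan gene, differed by -2.26 ± 0.48 (adjusted p = 0.0222), Colec10, a collectin, by -1.69 ± 0.39 (adjusted p = 0.0313) and Ifi27l2b, an interferon-inducible gene, by -1.47 ± 0.35 (adjusted p = 0.037). Olfml2a differed by -1.19 ± 0.26 (adjusted p = 0.023) and Matk, a kinase that restrains Src family kinases, by -1.18 ± 0.25 (adjusted p = 0.0222). With Sh2d6, Clca1, Trpm5, Nr1d1 and Nmu these were the 10 genes that met the rule for large falls.

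**Figure D3:**
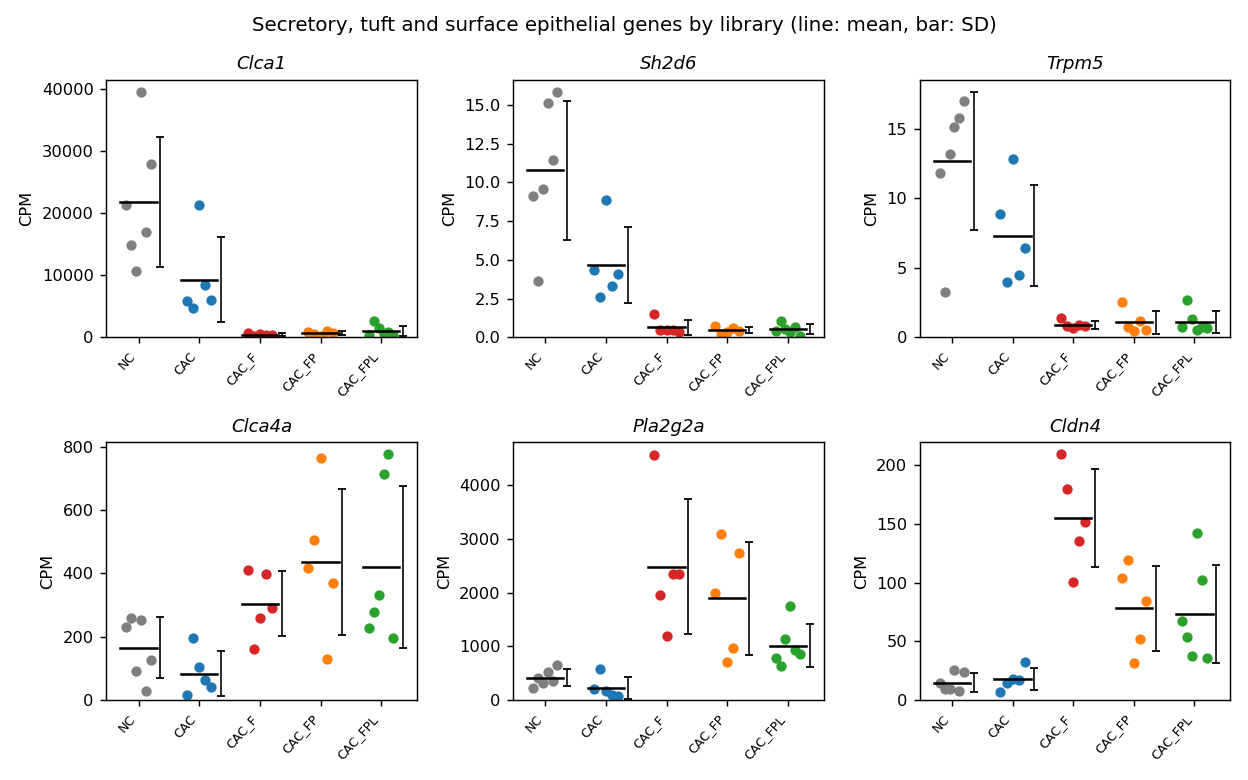
Each panel gives CPM (vertical axis, from 0) of 1 gene in every library of the 5 groups, with a line at the mean and a bar for the SD. Clca1, Sh2d6 and Trpm5 sit lower in all 6 CAC_FPL libraries than in the CAC libraries, and Clca4a, Pla2g2a and Cldn4 sit higher.

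Few chemotherapy response genes passed edgeR's test. Of 32 p53 response genes 1 rose (Plk3), with a median difference of 0.34. By unadjusted p below 0.05, 14 of the 32 were higher and 3 lower. Without CAC replicate 2 and CAC_FPL replicate 3, edgeR called 7 of the 32 higher and none lower. DESeq2 on all libraries called 7 of the 32, all higher. Over all genes tested DESeq2 called 578 higher and 282 lower, to be set beside its counts for each list. Cdkn1a, the p21 cell cycle inhibitor, was at 78.8, 83.4, 116, 106 and 95.2 CPM in CAC and from 75.0 to 171 CPM in CAC_FPL, with a median of 123, overlapping, with a difference of 0.33 ± 0.22 (adjusted p = 0.421). The proapoptotic Bax and Phlda3, an Akt inhibitor, were close to the threshold, at 0.58 ± 0.16 and 1.21 ± 0.35 (adjusted p = 0.0621 and 0.0677). Against CAC_F, Cdkn1a was lower in CAC_FPL by -0.997 ± 0.22 as a signed log2 value (adjusted p = 0.00994).

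None of 30 S phase and nucleotide supply genes was called by edgeR, and their median difference was 0.53. At an unadjusted p below 0.05, 16 of the 30 were higher and none lower, and DESeq2 called 9 higher. The smallest p values among them included Ccne1 (cyclin E1), with a difference of 1.03 ± 0.27 (adjusted p = 0.052). Rrm2, a subunit of ribonucleotide reductase, was at 35.8, 61.1, 29.8, 15.9 and 20.0 CPM in CAC and, by replicate, 42.5, 45.0, 22.3, 113, 165 and 120.2 CPM in CAC_FPL, a difference of 1.38 ± 0.41 (adjusted p = 0.075). CAC_FPL replicates 4 to 6 were above every CAC library and replicates 1 to 3 within their range. Without CAC replicate 2 and CAC_FPL replicate 3, 17 of the 30 were called higher (median 0.85). Tyms, the target of fluorouracil, differed by 0.20 ± 0.16 (adjusted p = 0.528), and the proliferation marker Mki67 by -0.05 ± 0.22 (adjusted p = 0.916). No member was called among 28 mitosis genes (median 0.17), 14 fluorouracil and folate enzymes (median 0.24) or 24 genes for repair of platinum lesions (median 0.20). At an unadjusted p below 0.05 these 3 lists held 0, 4 and 10 genes, and DESeq2 called 0, 0 and 2.

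Among 20 genes of the Nrf2 and glutathione response 3 rose and none fell (median 0.47). They were Gsta4, a glutathione transferase, with 0.84 ± 0.18 (adjusted p = 0.023), G6pdx, which supplies NADPH, with 0.72 ± 0.16 (adjusted p = 0.0283), and Txnrd1, thioredoxin reductase, with 0.61 ± 0.14 (adjusted p = 0.033). Gsta4 libraries did not overlap, and 5 of 6 CAC_FPL libraries of the other pair lay above CAC. Without the 2 libraries that stood apart, 10 of the 20 were called higher.

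NAD synthesis genes were not called. Of 22 listed, 13 were tested, and none passed edgeR's test in either direction (median 0.05). At an unadjusted p below 0.05, 4 were higher and 1 lower, and DESeq2 called 1 higher and 1 lower. The smallest p values were those of Pnp, purine nucleoside phosphorylase, and Nnt, which exchanges hydride between NADH and NADPH, with 0.62 ± 0.17 and -0.28 ± 0.08 (adjusted p = 0.059 and 0.0692). Neither gene's libraries overlapped between the groups. Nampt, which makes NAD from recycled nicotinamide, was at 86.3, 75.8, 107, 104 and 78.9 CPM in CAC and from 83.5 to 149 CPM in CAC_FPL, with a median of 88.1. The groups overlapped except for CAC_FPL replicate 6, the highest of all 11, and the difference was 0.12 ± 0.15 (adjusted p = 0.714). The other entry enzymes differed by 0.00 ± 0.13 (Nmnat1), -0.03 ± 0.18 (Nmrk1), -0.11 ± 0.21 (Naprt) and -0.25 ± 0.21 (Nadsyn1), with adjusted p from 0.541 to 0.997. DESeq2 and the other alternatives called none of these 5 genes.

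Of 23 tested NAD-consuming genes 1 fell (median -0.06). Sirt1, an NAD-dependent deacetylase, was at 23.5, 34.0, 34.9, 42.1 and 40.8 CPM in CAC and from 21.6 to 29.5 CPM in CAC_FPL, with a median of 23.0. CAC replicate 1 was low and lay within the CAC_FPL range, and the difference was -0.54 ± 0.13 (adjusted p = 0.0379). Sirt1 was called in 7 of 21 alternative analyses. Cd38, the ectoenzyme that breaks down NAD, was at 116, 199.8, 156, 94.8 and 80.4 CPM in CAC and from 110.3 to 384 CPM in CAC_FPL, with a median of 217, overlapping, with 0.79 ± 0.29 (adjusted p = 0.136). Nnmt, which methylates nicotinamide, differed by 2.08 ± 0.81 (adjusted p = 0.164), and was at 13.7 and 15.3 CPM in CAC_FPL replicates 1 and 6 and at or below 3.10 CPM in the other 9 libraries.

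Inflammatory genes taken as a list were higher in every CAC_FPL library than in any CAC library, and few passed edgeR's test. The summed level of the 32 listed genes ran from 85.1 to 150 CPM in CAC and from 211 to 922 CPM in CAC_FPL. Of 26 tested cytokine and protease genes 2 rose and none fell, with a median difference of 1.86. DESeq2 called 12 higher, and 18 of the 26 were higher, with none lower, at an unadjusted p below 0.05 by edgeR. Areg, a ligand of the EGF receptor, was at 5.46, 10.1, 3.22, 2.91 and 5.44 CPM in CAC and from 9.13 to 46.8 CPM in CAC_FPL, with a median of 19.5, with CAC_FPL replicate 2 inside the CAC range and a difference of 2.16 ± 0.46 (adjusted p = 0.023). Ccl7, a monocyte chemokine, differed by 4.16 ± 1.06 (adjusted p = 0.0472). Csf3, the granulocyte growth factor, was detected in CAC only in replicate 3 (11 counts, 0.183 CPM) and was at 0, 0, 0.15, 8.53, 1.00 and 12.7 CPM in CAC_FPL by replicate. The neutrophil chemokine Cxcl1 was at 0.137, 1.87, 0.25, 0 and 0.045 CPM in CAC and 1.15, 1.66, 4.27, 36.1, 3.49 and 86.3 CPM in CAC_FPL by replicate. CAC_FPL replicates 4 and 6 held the highest levels of both genes. Neither passed the test, with 6.68 ± 2.02 and 5.51 ± 1.57 (adjusted p = 0.0791 and 0.0662). Il1b and S100a8 differed by 0.30 ± 0.71 and 0.05 ± 1.05 (adjusted p = 0.852 and 0.983). Without the 2 libraries that stood apart, 9 of the 26 were called higher.

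Among immune cell lists, 3 of 21 B and plasma cell genes fell (median -0.49). The median was -0.10 without CAC replicate 1 and -1.30 without CAC_FPL replicate 3, and no member was called without CAC replicate 4 or without CAC_FPL replicate 5. Jchain, the joining chain of polymeric immunoglobulin, was at 3971, 2795, 2146, 2622 and 1296 CPM in CAC and from 759 to 1408 CPM in CAC_FPL, with a median of 1096. CAC replicate 5 lay within the CAC_FPL range and the other 4 above it, and the difference was -1.22 ± 0.26 (adjusted p = 0.023). Derl3, an endoplasmic reticulum gene of plasma cells, and Igkc, the kappa constant region, differed by -1.34 ± 0.29 and -1.01 ± 0.25 (adjusted p = 0.023 and 0.0454). Of 26 type I interferon response genes 2 fell (median -1.04): Mx1, an antiviral GTPase, by -1.67 ± 0.39 (adjusted p = 0.0346), and Oas1a, an oligoadenylate synthetase, by -0.95 ± 0.23 (adjusted p = 0.0416), as signed log2 values. Mx1 overlapped between the groups and Oas1a did not. Over the list 16 of 26 were lower at an unadjusted p below 0.05, and DESeq2 called 10. Of 14 neutrophil genes 6 were tested, and Retnlg fell (-1.39 ± 0.36, adjusted p = 0.0491), while Ly6g differed by 3.25 ± 1.06 (adjusted p = 0.101). DESeq2 called 1 of the 6 higher and 1 lower. The median over the 6 was -0.23, and 0.86 without CAC replicate 2. The summed level of all 14 ran from 14.4 to 138 CPM in CAC (median 17.5) and from 35.3 to 603 CPM in CAC_FPL (median 125). None was called among 19 macrophage and monocyte, 17 T and NK cell or 12 MHC class II genes (medians 0.38, -0.73 and -0.65). Without CAC replicate 1 the T and NK cell median was -0.27 and the MHC class II median -0.24. At an unadjusted p below 0.05 these 3 lists held 6, 6 and 5 genes by edgeR, and DESeq2 called 2, 0 and 0.

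Of 20 endoplasmic reticulum and integrated stress response genes 2 fell without overlap, the transcription factor Ddit3 (CHOP) with -0.70 ± 0.16 and the chaperone Dnajb9 with -0.50 ± 0.11 (adjusted p = 0.0346 and 0.0235). Pkm, pyruvate kinase, rose by 0.61 ± 0.13 (adjusted p = 0.0255; 2 of 22 glycolysis and hypoxia genes rose, median 0.33, the other being Gapdh with 0.51, whose processed pseudogenes can share its reads). Fosl1, an AP-1 subunit, rose by 3.53 ± 0.89 (adjusted p = 0.0458; 1 of 17 immediate early genes, median 0.76). The mitochondrially encoded mt-Nd4l and mt-Cytb fell, 2 of 13 such genes (median -0.63), with -0.70 ± 0.17 and -0.70 ± 0.18 (adjusted p = 0.044 and 0.0475). Nuclear copies of mitochondrial genes can share their reads, so these values are uncertain. All 13 were lower at an unadjusted p below 0.05, and DESeq2 called 8 lower. By edgeR none was called with the smooth muscle covariate (median -0.42), on the 2 groups alone or without CAC replicate 4. Without CAC replicate 2, edgeR called 10 of the 13 lower. No gene was called among 22 fatty acid oxidation genes or 21 nuclear respiratory chain genes (medians -0.01 and -0.07), where 5 and 0 had an unadjusted p below 0.05 and DESeq2 called 1 and 0. In all, 26 of the 47 lists had no called member. In each of the 11 fits that left out 1 library, the p53 response, goblet cell, tuft cell and circadian clock lists held at least 1 called gene, and each other list held none in at least 1 of those fits.

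Genes of other tissue layers varied between libraries, and each can move with the results above. Smooth muscle genes had a median difference of -0.87 over 15 tested genes, none of them called by edgeR. All 12 with an unadjusted p below 0.05 were lower, and DESeq2 called 3. The median was -0.40 without CAC replicate 5. Their summed level ran from 4330.0 to 19280.0 CPM in CAC and from 2347 to 7542 CPM in CAC_FPL. Actg2, a smooth muscle actin, was at 584, 302, 788, 1172 and 2312 CPM in CAC and from 231 to 641 CPM in CAC_FPL, with a median of 424 (adjusted p = 0.0984). When the mean level of that list entered the fit as a covariate, 129 genes were called higher and 66 lower, 104 of them among the 212. The adipocyte and mesothelium list had a median of 4.14 over 10 tested genes with none called by edgeR, 4 higher at an unadjusted p below 0.05 and 1 called by DESeq2. Adipoq, the fat cell hormone adiponectin, was at 222, 29.1, 0.195, 15.4, 0.16 and 128 CPM in CAC_FPL by replicate and at 14.9 CPM in CAC replicate 5, and at or below 0.412 CPM in the other CAC libraries. Their part in the called genes beyond the covariate was not tested.

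Haemoglobin genes split the CAC_FPL libraries. Hbb-bs, a beta globin, was at 22.0, 21.1, 11.8, 36.6 and 99.7 CPM in CAC and 69.0, 22.8, 12.2, 0, 0 and 1.31 CPM in CAC_FPL by replicate, listed at 0 in 2 libraries. CAC_FPL replicates 1 to 3 lay within the CAC range and replicates 4 to 6 far below it, and the gene was not called (-1.12 ± 1.08, adjusted p = 0.601). Gsdmc4, of the gasdermin family of pore-forming proteins, was at 301, 504, 1146, 519.6 and 445 CPM in CAC and 40.0, 304, 19.6, 4.53, 2.47 and 4.86 CPM in CAC_FPL by replicate. Replicate 2 alone reached the CAC range, and the difference was -3.22 ± 0.84 (adjusted p = 0.0523). None of 8 gasdermin and pentraxin genes was called by edgeR (median -2.47), while 6 were lower at an unadjusted p below 0.05 and DESeq2 called 3 lower and 1 higher. On the first principal component of all 27 libraries (39.99% of variance) CAC libraries ran from -46.18 to -10.56, CAC_F from 32.46 to 75.93, and the CAC_FPL libraries were at -13.88, -23.21, -16.91, 32.15, 20.12 and 39.5 in order of replicate. Replicates 4 to 6 thus lay beyond all CAC libraries on that axis, and replicates 1 to 3 within their range. The upper end of that range was CAC replicate 2 alone, a library that stood apart. The other CAC libraries ran from -46.18 to -35.32, below all 6 CAC_FPL libraries. No test was made between the CAC_FPL replicates, which share 1 label.

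**Figure D4:**
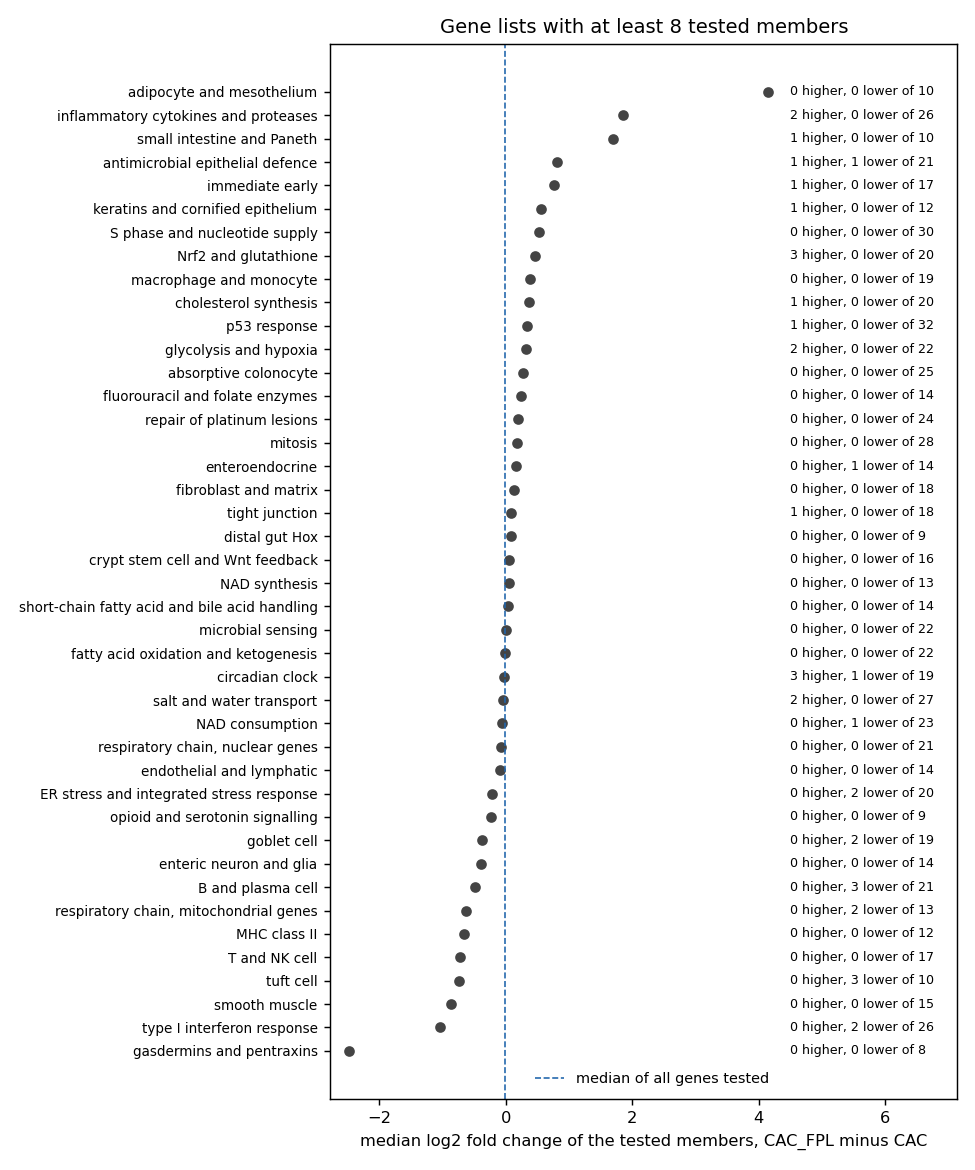
Points give the median log2 fold change of CAC_FPL minus CAC over the tested members of each gene list with at least 8 of them, and the text at the right gives how many were called in each direction. The dashed line is the median of all 15080 genes (-0.00311). Gasdermins and pentraxins lie lowest (-2.47) and adipocyte genes highest (4.14), both with no member called.

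Opioid receptors are the targets of loperamide. Oprm1, the mu opioid receptor, was at 0 to 0.0901 CPM in CAC and 0 to 0.112 CPM in CAC_FPL, under the level required for testing. The delta opioid receptor gene Oprd1, also under that level, was at 1.13 to 1.56 CPM in CAC and 0.0967 to 1.12 CPM in CAC_FPL, lower without overlap. None of 9 tested opioid and serotonin signalling genes was called by edgeR or DESeq2 (median -0.23), and none had an unadjusted p below 0.05. Also under that level was Lgr5, the crypt stem cell receptor, at 0.69 to 5.22 CPM in CAC and 0.839 to 4.05 CPM in CAC_FPL, and none of 16 tested crypt stem cell and Wnt feedback genes was called by edgeR (median 0.06), with 3 at an unadjusted p below 0.05 and 2 called by DESeq2, 1 in each direction.

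The genes named here were next placed beside the other FOLFOX groups, which share the CAC libraries as their control. Prss22 differed from CAC by 8.40 ± 0.97 in CAC_F and 6.92 ± 0.92 in CAC_FP, and Clca1 by -4.54 ± 0.64 and -3.88 ± 0.62. Cry1 differed from CAC by 1.02 ± 0.12 in CAC_F and by 1.23 ± 0.12 in CAC_FP. In CAC_F minus CAC 5902 genes (39.1%) were called and in CAC_FP minus CAC 2802 (18.6%), against 212 (1.41%) in CAC_FPL minus CAC.

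Tested directly, CAC_FPL minus CAC_FP gave 0 called genes by edgeR. Where CAC_FPL minus CAC had 2837 of 15080 genes at an unadjusted p below 0.05, CAC_FPL minus CAC_FP had 995. DESeq2 called 19 higher and 2 lower there, and voom with library weights 336 in each direction. In CAC_FPL minus CAC_F, Prss22 was lower by -2.83 ± 0.68 (adjusted p = 0.0141), Areg by -1.77 ± 0.44 (adjusted p = 0.0159) and Csf3 by -4.59 ± 1.42 (adjusted p = 0.0383), as signed log2 values. Prss22 and Areg were each called in 16 of the 17 alternative analyses of that contrast, and Csf3 in 8. Gsdmc4 and Hbb-bs were higher in CAC_FPL than in CAC_F (adjusted p = 0.0131 and 0.00587). In both genes the high CAC_FPL levels were those of replicates 1 to 3. Gsdmc4 was called in 12 and Hbb-bs in 16 of those 17 analyses. Hbb-bs was listed at 0 in all 5 CAC_F libraries.

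The smallest adjusted p values in CAC_FPL minus CAC_F were in genes that were not called against CAC. Higher in CAC_FPL were Aoc1, which degrades diamines such as histamine, with 2.16 ± 0.34, Pck1, an enzyme of gluconeogenesis, with 2.67 ± 0.45, Gpt2, an alanine transaminase, with 1.32 ± 0.22, Myorg with 1.27 ± 0.21 and Tvp23b with 0.86 ± 0.14. Lower were Papln with -1.97 ± 0.30, Avil, which encodes advillin, with -1.75 ± 0.27, the metalloprotease Adam8 with -1.71 ± 0.28, Zdhhc15, a palmitoyltransferase, with -0.79 ± 0.13 and the splicing helicase Ddx46 with -0.43 ± 0.07. Their adjusted p lay between 0.00436 and 0.00508 by edgeR, and against CAC between 0.205 and 0.984. Fitted on the CAC_FPL and CAC_F libraries alone, no gene was called between these groups, and the count at an unadjusted p below 0.05 was 3588.

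**Figure D5:**
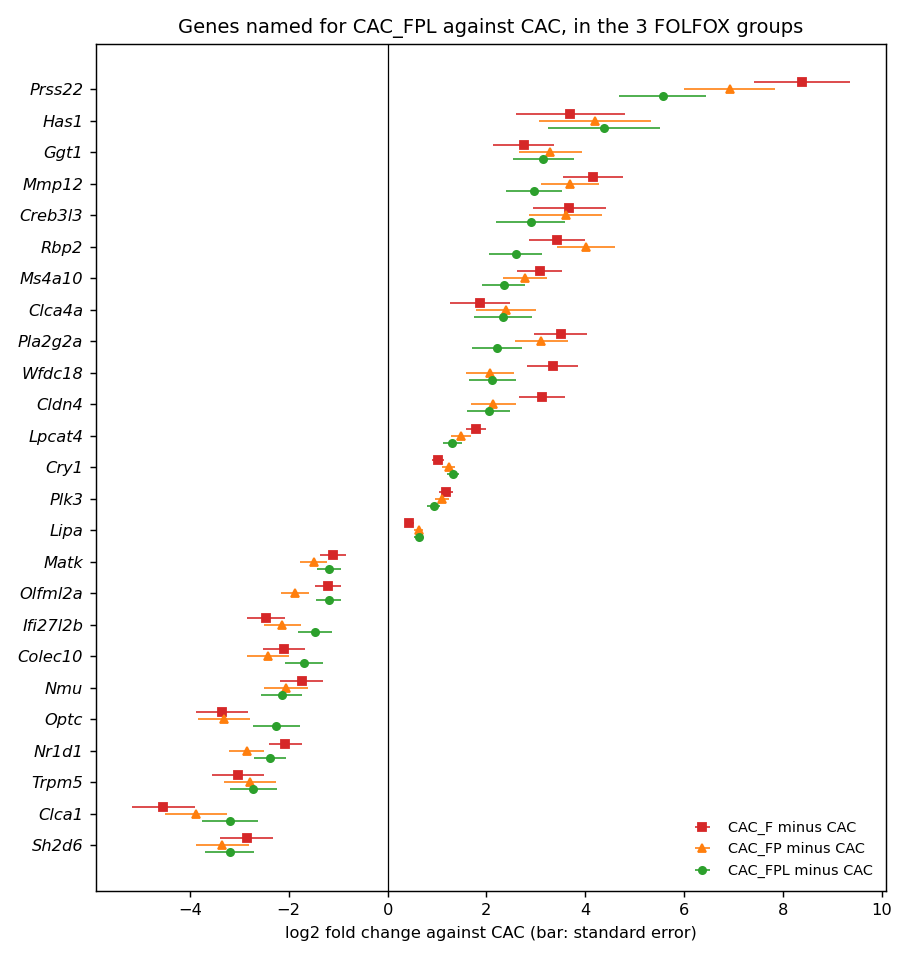
Points give the log2 fold change against CAC (horizontal axis, bars are the SE) of each gene on the vertical axis, in CAC_F (squares), CAC_FP (triangles) and CAC_FPL (circles), which share the 5 CAC libraries. Prss22 runs from 5.57 in CAC_FPL to 8.40 in CAC_F, and Cry1 from 1.02 in CAC_F to 1.33 in CAC_FPL.

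Against mice without AOM/DSS, 1068 genes (7.08%) were called in CAC_FPL, 664 higher (4.4%) and 404 lower (2.68%). In CAC minus NC 1 gene (0.00663%) was called, and it was Cry1, lower in CAC with a difference of -0.78 ± 0.12 (adjusted p = 0.0121). Clca1 was at 21875 ± 10479 CPM in NC (SD, n = 6), and Trpm5 at 12.7 ± 4.98 CPM, both above the CAC_FPL means of 1015 ± 854 and 1.11 ± 0.805 CPM (SD, n = 6). The differences of CAC_FPL minus NC were -4.43 ± 0.58 (adjusted p = 0.000232) and -3.51 ± 0.49 (adjusted p = 0.000382).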

How the data were processed

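RNA from colon segments was sequenced with a stranded dUTP mRNA protocol, per the labels' protocols. Cutadapt 1.9, FastQC and HISAT2 are listed in the submitters' processing notes. For the counting tool, its strand setting and the genome build, the sources used here name nothing. The authors deposited 1 table of raw counts and FPKM values per gene for 27 libraries. No column of another series was used. Total counts ran from 56687812 to 71260166 in CAC and from 67336922 to 76966764 in CAC_FPL, which leaves genes of a few CPM well above counting error.

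Genes with a deposited FPKM of at least 1 in at least 5 libraries were tested on the counts with edgeR 4.0.16 (TMM scaling, 1 coefficient per group over all 27 libraries, glmQLFit and glmQLFTest, Benjamini-Hochberg adjustment, threshold 0.05) in R 4.3.3. CPM values use TMM-scaled library sizes. Labels name the samples as replicates of a group and not their litters or cages, so p measures the spread between these samples. Members and lists were chosen with earlier results of these data known. Named genes were the 12 largest rises and falls of at least 2-fold without overlap between libraries and the 5 smallest p per direction. Added to them were up to 4 called genes per list (or 2 uncalled where none was called) and a set of 22 always named. Other genes were chosen outside this rule, and only some, such as Grp and Calcb, are marked where they appear. Unmarked ones include Nr1d2, Bmal1, Dbp, Bax, Phlda3, Gnat3, Tff3, Ly6g and Oprd1. A few genes that met this rule are not reported here. In addition, Ccl2 and the other genes of the closing observations were picked after their values were seen. In simulated counts for CAC_FPL against CAC over 15080 genes the test recovered 70% of 100 genes changed 2-fold and 90% of 100 changed 4-fold, with 8 false calls. Those counts were drawn for each library independently from 1 mean per gene, apart from the changed genes. No simulated library was made to stand apart, so these rates cannot be carried over to the real libraries. Alternatives were other scaling, filters, covariates and left-out libraries, DESeq2 1.42.0, and limma 3.58.1 (voom, and log2 of FPKM plus 1 or 0.1).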

Additional observations from a re-analysis of the deposited data

Results flagged for a closer look

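In 19 of 76 groups checked over 38 genes, 1 library lay far from the rest of its group by Dixon's criterion. Its nominal rate of about 1 in 20 is for independent, normally distributed values. CPM values can be skewed or near 0, and the genes were chosen with these data known, so no excess can be read from the count. CAC replicate 3 was the high library in Clca1 (21300.0 CPM), Retnlb (1720.0 CPM), Sh2d6 (8.87 CPM), Gsdmc4 (1150.0 CPM) and Csf3 (0.184 CPM). CAC_FPL replicate 2 was the high library in Retnlb (407 CPM), Trpm5 (2.67 CPM) and Gsdmc4 (304 CPM). CAC replicate 2 was high in Pla2g2a (581 CPM), Cxcl1 (1.87 CPM) and Hoxb13 (96.9 CPM), and CAC_FPL replicate 3 in Hoxb13 (289 CPM) and Slc26a3 (501 CPM). CAC replicate 5 was high in Plk3 (18.5 CPM), Hbb-bs (99.7 CPM) and Adipoq (14.9 CPM). Single high libraries were CAC_FPL replicate 1 in Hbb-bs (69.0 CPM), replicate 4 in Mmp12 (34.4 CPM) and replicate 6 in Nampt (149 CPM).

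The change from CAC differed between CAC_FPL and CAC_F in 7 of these genes by edgeR's test of CAC_FPL minus CAC_F. CAC_FPL was higher in Per2 (1.15), Gsdmc4 (3.95) and Hbb-bs (13.2, against libraries all listed at 0, so its size depends on the prior count and is no bound). It was lower in Prss22 (-2.83), Areg (-1.77), Csf3 (-4.59) and Cdkn1a (-0.997).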

How the results depend on the processing

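In CAC_FPL minus CAC, 22 alternative analyses were run. Of the 212 called genes, 4 were called in all 22, and 14 in every one apart from the fit on the 2 groups alone. Among those called less often were Retnlg (7 of the 21 that tested it), Has1 (8 of 21) and Fosl1 (9 of 21). Ccl7 was called in 8 of 22, Retnlb in 10 of 22 and Clca4a in 11 of 22. The main counts were 133 higher and 79 lower, 63 and 48 of them by at least 2-fold, and the alternatives are given in that order. They were 61 and 21 (41 and 20) without the FPKM filter, 5 and 4 (3 and 3) on the 2 groups alone, 578 and 282 (228 and 130) with DESeq2, 500 and 434 (106 and 132) with voom and library weights, 841 and 426 (277 and 152) without CAC replicate 2 and CAC_FPL replicate 3, 203 higher and 39 by at least 2-fold with limma on log2(FPKM + 1), and 232 higher with log2(FPKM + 0.1). Leaving out 1 library gave 15 to 511 higher and 8 to 286 lower (10 to 199 and 8 to 117 by at least 2-fold). Median-ratio scaling, a mean FPKM of at least 5 and the smooth muscle covariate stayed within 1.5 times the counts of called genes in each direction. The cause of these shifts was not tested. Depth limits genes with few counts, such as Csf3, Prss22 and Oprm1 in CAC, whose fold changes are loosely fixed.

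CAC and CAC_FPL samples with the same replicate number did not deviate together (correlations of deviations over genes between -0.382 and 0.0896 for 5 numbers). Pairs with unlike numbers ran from -0.4 to 0.436. The other groups were not examined, and a shared cage, litter or processing order was not tested. With the replicate block, 62 and 33 genes were called (29 and 25 by at least 2-fold).

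In CAC_FPL minus CAC_FP, where edgeR called 0, DESeq2 called 19 and 2, voom 336 and 336, and leaving out 1 library 0 to 3 higher and 0 to 1 lower. In CAC_FPL minus CAC_F (1077 and 761) the counts were 423 and 320 without the filter, 0 and 0 on the 2 groups alone, 607 and 505 without the 2 libraries that stood apart, 1802 and 1655 with voom, 1206 lower with DESeq2, and 354 to 1337 and 218 to 1196 on leaving out 1 library.

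Sign changes over these alternatives fell on 12 of the genes named in the text, none of them called in CAC_FPL minus CAC. With the smooth muscle covariate they were Hoxb13 (-3.11), Slc26a3 (-0.71), Muc2 (0.35), S100a8 (-0.74), Nmnat1 (-0.0060) and Hoxa13 (-0.34). With the replicate block they were Nmnat1 (-0.021) and Naprt (0.0019). Voom gave Nampt -0.058, Cdkn1a -0.045, Hoxb13 -0.17, Slc26a3 -0.45, Mki67 0.045 and Nmnat1 -0.0025, and without the 2 libraries that stood apart Slc26a3 was -0.53 and Mki67 0.33, while Naprt kept its sign (-0.28). Limma on log2(FPKM + 1) gave Slc26a3 -0.30 and Nmrk1 0.014, with + 0.1 -0.33 and 0.017, and without the filter Nmrk1 was 0.0067. On leaving out 1 library the ranges were -0.75 to 0.30 (Slc26a3), -0.68 to 2.91 (S100a8), -0.067 to 0.063 (Nmnat1), -0.15 to 0.20 (Mki67), -0.084 to 0.063 (Nmrk1), -0.45 to 0.025 (Muc2), -7.20 to 8.84 (Hoxb13), -1.27 to 1.84 (Hoxa13), -0.017 to 0.75 (Il1b), -0.033 to 0.19 (Nampt) and -0.21 to 0.025 (Naprt).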

Other observations

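The genes here were picked one by one after their values were seen and stand for no group. Mogat2, which rebuilds triglyceride from monoglyceride in absorptive cells, differed by 2.02 ± 0.50 (adjusted p = 0.0439 by edgeR) and was at 1.97, 1.29, 2.02, 1.59 and 2.48 CPM in CAC and 10.7, 6.48, 1.38, 12.4, 4.93 and 9.68 CPM in CAC_FPL by replicate. CAC_FPL replicate 3 alone lay within the CAC range. Dgat2, the last enzyme of triglyceride synthesis, differed by 1.49 ± 0.32 (adjusted p = 0.023), with all CAC_FPL libraries above CAC and replicate 1 the highest at 272 CPM. Acsl1, which activates fatty acids, differed by 1.70 ± 0.41 (adjusted p = 0.0403), and its highest libraries, CAC_FPL replicates 1 and 6 at 213 and 227 CPM, were also the highest in Adipoq. Apoc2, an apolipoprotein, rose by 3.45 ± 0.78 (adjusted p = 0.03), and Slc6a19, a neutral amino acid transporter of the small intestine, by 4.23 ± 1.07 (adjusted p = 0.0458). Slc6a19 was at 8.74, 1.36, 2.70, 113, 87.8 and 2.24 CPM in CAC_FPL by replicate, so its level rested on replicates 4 and 5. The part of fat tissue in these values was not tested.

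Ccl2, a monocyte chemokine, was at 0.356 to 1.48 CPM in CAC and 1.79 to 48.5 CPM in CAC_FPL, without overlap, and was not called (adjusted p = 0.0611).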
